A study of Rattus norvegicus with 15 samples.

Results

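The genes described here encode the proteasome. They were the protein-coding genes of the count table whose symbol begins with Psm, followed by a letter from a to g and a digit. The rule took 47 of the 11574 genes in the table, of which 11126 are protein-coding, and used no measured value. Of the 47, 45 encode subunits, activators, an inhibitor or assembly factors of the proteasome. Psmc3ip and Psme3ip1 carry the names of subunits that their products bind and encode no subunit. By role, 7 genes encode the alpha ring of the 20S core, 4 its structural beta subunits, 3 its constitutive catalytic subunits and 2 the catalytic subunits of the immunoproteasome. A further 6 encode 19S ATPases, 11 encode 19S subunits without ATPase activity, 3 encode chaperones of the 19S base, 4 encode chaperones of the 20S core, 3 encode PA28 activator subunits, 1 encodes PA200 and 1 encodes the inhibitor PI31. Psmb8, the third catalytic subunit of the immunoproteasome, and Psma8 and Psmb11, which belong to the proteasomes of testis and thymus, were not analysed here. The alpha subunit Psma3 is represented by the gene named Psma3l (ENSRNOG00000007851, cytogenetic band 6q24), which RefSeq lists under the symbol Psma3.

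The study followed RNA of H9c2, a wild-type myoblast line established from embryonic rat heart, as the cells left proliferation and formed myotubes with or without all-trans retinoic acid (RA). The 5 groups of 3 libraries each were T0 (day 0, no RA), T7-RA and T14-RA (day 7 and day 14 without RA) and T7+RA and T14+RA (the same days with RA at 1 µM added daily). All cells were grown in 10% fetal bovine serum and plated for 24 h, and the serum was then lowered to 1% for the groups of days 7 and 14, so culture time and the lower serum cannot be told apart in comparisons with T0. RA was dissolved in DMSO, and the labels do not say whether the groups without RA received the solvent. All libraries come from 1 cell line, and the study's methods call the 3 libraries of a group biological replicates without saying whether they were separate cultures, so p-values measure the spread between these samples. The cell line field of the labels holds a name that counts upward from sample to sample after T0, whereas every title names H9c2, and the titles were followed.

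The proteasome degrades proteins that carry ubiquitin. Its 20S core is a barrel of alpha rings around beta rings, and the peptide bonds are cut inside the beta rings by the products of Psmb5, Psmb6 and Psmb7. The 19S particle binds ubiquitin, removes it and threads the substrate into the core with a ring of ATPases. Interferon replaces the catalytic subunits by Psmb8, Psmb9 and Psmb10 and raises the PA28 activator, which changes the peptides offered to MHC class I. In muscle the ubiquitin-proteasome system turns over myofibrillar proteins, through ligases such as MuRF1 (Trim63).

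Libraries held 508397 to 1030820 counts. Of the 47 genes, 40 (85.1%) had at least 10 counts in every library, against 51.2% of all genes in the table, so most of these genes were counted better than the typical gene. The 7 others were Psmb9, Psmb10, Psmc3ip, Psmd10, Psme2, Psmg2 and Psmg4. The myoblast and myotube marker list had 7 of 8 genes in the table, and their summed level was 259 to 300.2 CPM (counts scaled to a library of 1e+06 counts by TMM, edgeR's normalization) at T0, 3095 to 3651 in T7-RA, 11596 to 12208 in T14-RA, 1468 to 1772 in T7+RA and 4537 to 5245 in T14+RA. Of 8 cardiomyocyte markers only Gata4 was among the genes analysed, at 6.90 to 21.6 CPM, and none of the 8 macrophage or 6 endothelial markers was. The T0 libraries stood apart from each other. Their chi-square per gene between replicates was 1.96 to 2.77, against 1.07 to 1.86 in the other groups. T0 replicate 2 had the highest level of the T0 libraries for 33 of the 47 genes.

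Counts on the 47 genes made up 0.509%, 0.605% and 0.447% of the T0 libraries. The share was 0.642% ± 0.00748 (SD, n = 3) for the T7-RA libraries, 0.631% ± 0.0274 for T14-RA, 0.620% ± 0.0187 for T7+RA and 0.699% ± 0.0366 for T14+RA. In the plot of summed values, each T7-RA and T14-RA library lies above each T0 library, and each T14+RA library lies above every other library. The lowest T14+RA share was 0.671%, and the highest in any other group was 0.662%. When library sizes were scaled by TMM, T0 replicate 2, at 6266 CPM summed over the genes, lay within the range of T7-RA (6209 to 6348) and T14-RA (6038 to 6463), whereas T14+RA (6626 to 7391) still lay above all others. In bulk RNA, fewer cells of a type and less RNA per cell cannot be told apart.

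**Figure D1:**
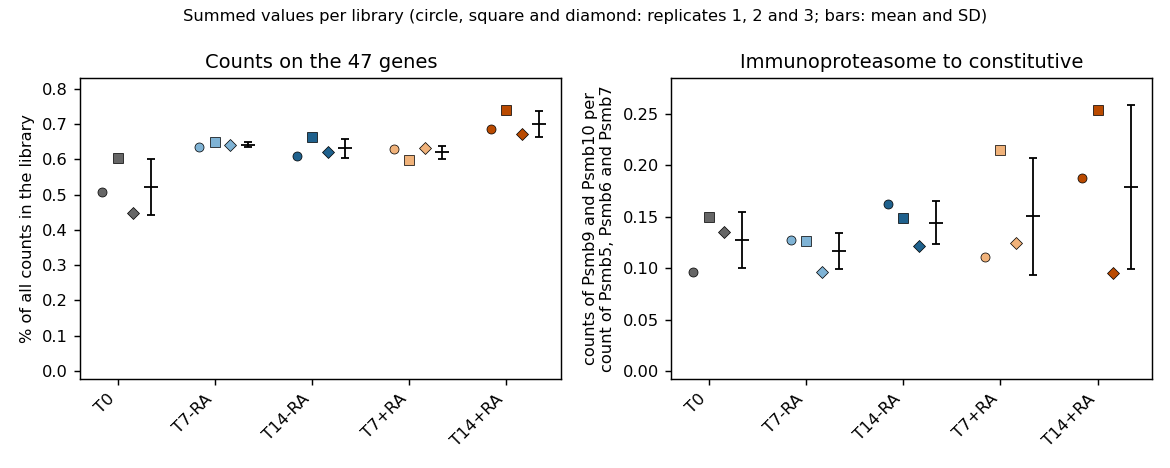
Left, counts on the 47 genes as a percentage of all counts in each library, by group; right, counts of Psmb9 and Psmb10 per count of Psmb5, Psmb6 and Psmb7. Circles, squares and diamonds are replicates 1, 2 and 3, and the bars are the mean and SD of 3 libraries. The T14+RA libraries, at 0.671% or more, lie highest on the left, and the groups overlap on the right, where ratios run from 0.0949 to 0.254.

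With time in culture, the genes that passed the test all rose, and they came from the core, the 19S particle and the activators. Psme4, which encodes the activator PA200, rose 2.20-fold by day 14, Psme2 rose 2.61-fold and Psma3l rose 2.03-fold, and 4 other core or 19S genes rose by 0.59 to 0.73 on the log2 scale. The terms compared days 7 and 14 with day 0 over all 15 libraries, adjusted for RA, in edgeR's quasi-likelihood test with Benjamini-Hochberg adjustment over all genes, and a gene was called at an adjusted p under 0.001. Both terms use the same T0 libraries and are given side by side. For day 14, 7 of the 47 genes were called higher (14.9%) and 0 lower, where 8.47% of all genes were called higher and 8.85% lower. For day 7, 5 were called higher (10.6%) and 0 lower, against 4.29% and 4.44% of all genes. The median change of the 47 genes was 0.15 on the log2 scale at day 7 and 0.30 at day 14, where the medians of all genes were 0.02 and 0.05. At an adjusted p under 0.05, 8 of the genes were higher at day 7 and 0 lower, against 11.7% and 11.5% of all genes, and without T0 replicate 2 the 8 became 17. At that threshold 16 were higher at day 14 and 0 lower, against 17.9% and 17.5% of all genes. Among the better-counted genes with at least 10 counts in every library, 6 of 40 members (15.0%) were called higher at day 14 at 0.001, beside 12.5% of such genes. The shares at 0.001 thus lay close together among better-counted genes. At 0.05, 17 of the 40 (42.5%) were higher, beside 23.2%. The number lower was not 0 in every fit. Psmc3ip (-1.13 at day 14, edgeR adjusted p = 0.0501) passed 0.05 with limma-voom, limma on quantile-normalized values and 4 of 15 fits with 1 library left out, which were those without T0 replicate 1, T14-RA replicates 2 or 3 or T14+RA replicate 1 (adjusted p 0.0200 to 0.0495). Without T0 replicate 3, Psmd2 passed at both days and Psmc2 at day 7, each lower (edgeR adjusted p 0.0186 to 0.0318). The count of 16 was 10 without T0 replicate 1, 10 without T0 replicate 3 and 21 without T0 replicate 2.

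**Figure D2:**
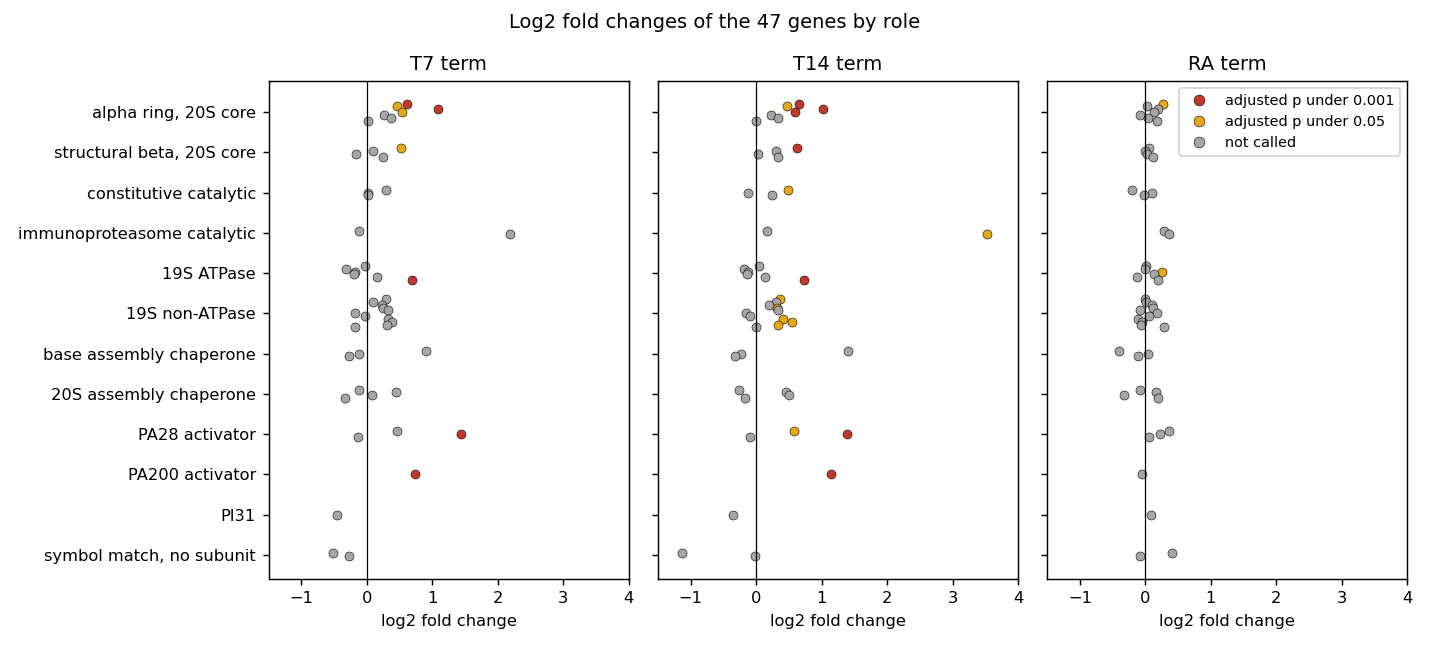
Log2 fold changes of the 47 genes (horizontal axis) by role (rows) for the T7, T14 and RA terms of the edgeR fit. Each point is 1 gene, coloured by its adjusted p. The called genes lie to the right of 0 at T7 (5 genes) and T14 (7 genes), and no gene is called for RA.

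Of the 7 alpha ring genes, all had a positive day 14 change, 3 were called and Psma2 also passed 0.05 (log2 change 0.47, SE 0.157, edgeR adjusted p = 0.0153; adjusted p = 0.0982 without T0 replicate 3). Psma3l was at 77.3, 67.5 and 75.5 CPM at T0, 168, 168 and 173 in T7-RA and 127, 149 and 137 in T14-RA. With RA it was at 155, 161 and 182 at T7 and 165, 184 and 212 at T14. Every later library lay above every T0 library, and every T14+RA library above every T14-RA library. The log2 change was 1.09 (SE 0.159) at day 7 and 1.02 (SE 0.162) at day 14, with edgeR adjusted p of 2.47e-07 and 6.32e-07. Reads of Psma3l can be shared with LOC100361067, a related copy at 10q25 that held 116 counts in all. How many reads the copies share was not measured.

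Psma1, another alpha subunit, was at 174, 152 and 147 CPM at T0, 259, 248.6 and 247 in T7-RA and 241, 213 and 266 in T14-RA. With RA the values were 299, 266 and 291 at T7 and 329.9, 300.2 and 297 at T14. No T0 library reached the level of any later library, and at both days the libraries with RA lay above those without. Psma1 rose by 0.62 (SE 0.125) at day 7 and 0.65 (SE 0.126) at day 14 on the log2 scale (edgeR adjusted p = 1.25e-04 and 3.23e-05). Without T0 replicate 3 the day 7 call was lost (0.58, adjusted p = 0.00154).

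Psma4 stood at 105, 131 and 94.3 CPM at T0, at 159, 157 and 173 in T7-RA and at 151, 177 and 159 in T14-RA. T7+RA libraries held 191, 161 and 159 CPM and T14+RA libraries 177, 195 and 190.4. The T0 values did not overlap with any later group. The day 14 change of 0.59 (SE 0.143, edgeR adjusted p = 7.77e-04) was near the threshold. It was lost in 8 of 15 fits that left out 1 library, which were those without T0 replicates 1 or 3, T7-RA replicates 1 or 3, T14-RA replicates 2 or 3 or T7+RA replicates 2 or 3 (adjusted p 0.00111 to 0.00799). Without T0 replicate 2 its day 7 change, 0.53 with all libraries, was called as well, at 0.67. The other alpha genes, Psma5, Psma6 and Psma7, had day 14 changes of 0.22, 0.34 and 0.00 that did not pass 0.05.

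Among the 4 structural beta genes, Psmb1 was called at day 14. It was at 105, 122 and 96.4 CPM at T0, 155, 173 and 155 in T7-RA and 143, 191 and 144 in T14-RA. With RA it was at 145, 144 and 168 at T7 and 178, 189 and 174 at T14. Each later group lay above T0. The day 14 change was 0.62 (SE 0.148, edgeR adjusted p = 5.45e-04), and the call was lost without T0 replicates 1 or 3, T14-RA replicate 2 or T7+RA replicates 1 or 2 (adjusted p 0.00101 to 0.00481). Psmb2, Psmb3 and Psmb4 had changes of 0.30, 0.03 and 0.33 and did not pass 0.05.

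Of the 6 19S ATPase genes, Psmc6 was called, and the other five ranged from -0.18 to 0.14 at day 14. Psmc6 was at 99.3, 86.3 and 54.5 CPM at T0, 143, 132 and 135 in T7-RA and 136, 138 and 120.2 in T14-RA. With RA it was at 154, 150.4 and 130.3 at T7 and 172, 154 and 152 at T14. All later libraries lay above all T0 libraries, of which replicate 3 was far the lowest. The changes were 0.69 (SE 0.160, edgeR adjusted p = 8.21e-04) at day 7 and 0.73 (SE 0.161, adjusted p = 2.12e-04) at day 14. Without T0 replicate 3 the day 14 change was 0.56 (adjusted p = 0.00697). The day 7 call was lost in 8 of 15 fits with 1 library left out, those without T0 replicates 2 or 3, any 1 of the T7-RA libraries, T14-RA replicate 2 or T7+RA replicates 1 or 2 (adjusted p 0.00103 to 0.0237).

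None of the 11 19S genes without ATPase activity was called at 0.001, and 5 passed 0.05 at day 14. These were Psmd6 (log2 change 0.55), the ubiquitin receptor Psmd4 (0.42), Psmd1 (0.36), Psmd7 (0.34) and Psmd13 (0.32), with edgeR adjusted p from 0.0118 to 0.0436. Leaving out 1 library often ended these results. Psmd1 missed 0.05 without T0 replicate 3 (adjusted p = 0.130) and Psmd6 without T0 replicate 1 (0.104). Psmd7 missed it without T0 replicates 1 or 3 or T14-RA replicate 1 (0.0610 to 0.119), and Psmd4 without T0 replicates 1 or 3, T7-RA replicates 1 or 2 or T7+RA replicate 2 (0.0504 to 0.271). Psmd13 missed it in 9 of 15 such fits, without T0 replicates 1 or 3, T7-RA replicates 1 or 2, T14-RA replicate 2, any T7+RA library or T14+RA replicate 1 (0.0559 to 0.207). Psmd14, the deubiquitinase of the particle, had a change of 0.33 (adjusted p = 0.123). Psmd2, the most abundant of the 47 genes by count (6500 in all), had a change of -0.16 (adjusted p = 0.283). Of the 3 base chaperones (Psmd5, Psmd9, Psmd10), the 4 core chaperones (Psmg1 to Psmg4) and Psmf1, none passed 0.05 for time, and their day 14 changes ran from -0.35 to 1.41, the highest being that of Psmd10, which had 2 to 9 counts per library. Psmc3ip, a recombination cofactor, was lower in all T14-RA libraries (7.21, 8.86 and 8.47 CPM) than in all T0 libraries (11.04, 16.9 and 14.7), with a log2 change of -1.13 (SE 0.464, edgeR adjusted p = 0.0501).

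**Figure D3:**
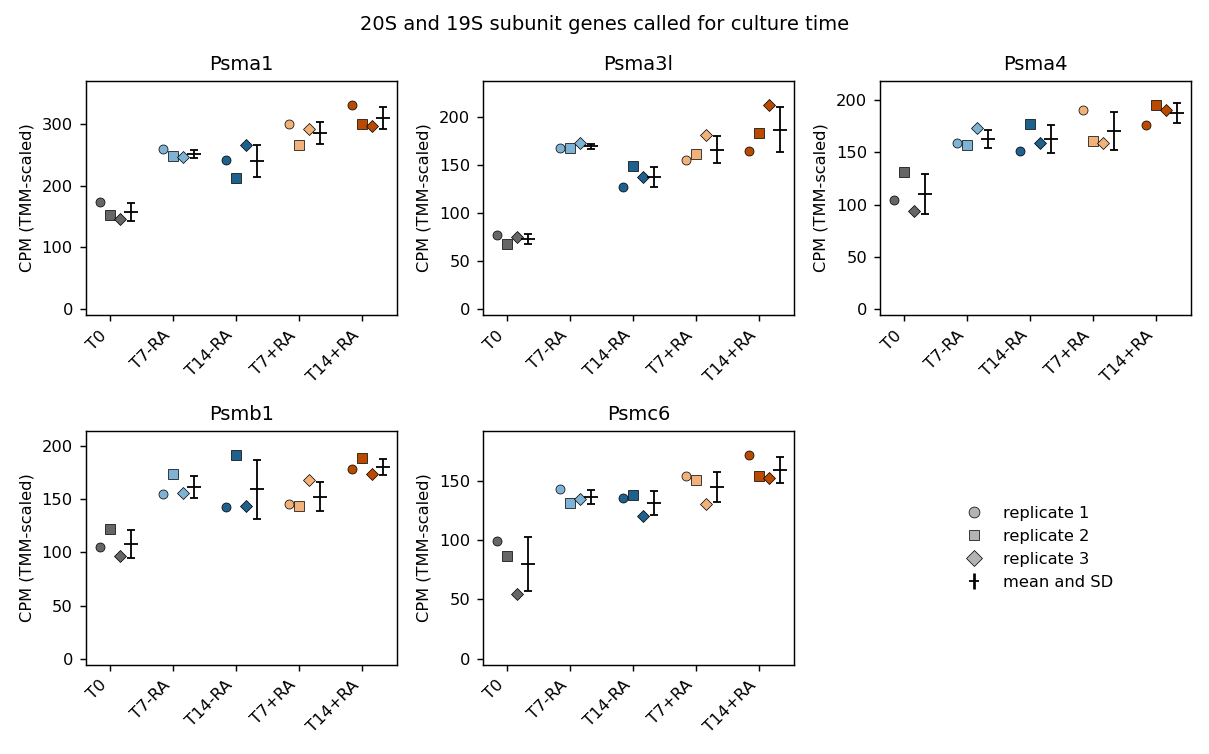
CPM scaled by TMM of the 5 core and 19S subunit genes called for culture time, by group. Symbols are replicates 1 to 3, and the bars are the mean and SD of 3 libraries. In each panel the T0 libraries lie below the libraries of every later group.

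The activators Psme2 and Psme4 held the largest day 14 changes among the members with at least 5 counts in every library. PA200, the product of Psme4 (band 14q22), is an activator that caps the core without ATP and is known for the breakdown of histones in spermatogenesis. Psme4 was at 179, 129 and 136 CPM at T0, at 268, 248.6 and 296 in T7-RA and at 334, 287 and 291 in T14-RA. With RA, it was at 252, 192 and 218 at T7 and 321, 327 and 391.6 at T14. Every later library exceeded every T0 library, and the T14 groups overlapped with and without RA. The change was 0.73 (SE 0.141) at day 7 and 1.14 (SE 0.141) at day 14, with edgeR adjusted p of 5.86e-05 and 1.57e-09, and both calls stood in each of the 15 fits without 1 library.

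PA28 in the cytoplasm is a ring of the Psme1 and Psme2 products, and both genes answer to interferon gamma, whereas Psme3 forms a separate nuclear ring. Psme2 was at 20.7, 9.38 and 16.8 CPM at T0 (15, 5 and 8 counts), 46.5, 34.9 and 63.9 in T7-RA and 40.8, 37.2 and 33.9 in T14-RA. With RA it was at 44.2, 46.98 and 48.0 at T7 and 50.2, 58.1 and 54.4 at T14. All later libraries lay above T0. The log2 change was 1.44 (SE 0.294, edgeR adjusted p = 1.43e-04) at day 7 and 1.38 (SE 0.300, adjusted p = 1.69e-04) at day 14. Without T0 replicate 2 the changes were 1.20 and 1.15 (adjusted p = 0.00288 and 0.00297), and without T7-RA replicate 3 the day 7 change was 1.24 (adjusted p = 0.00169).

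Psme1 was at 40.0, 39.4 and 54.5 CPM at T0, 70.4, 53.8 and 79.9 in T7-RA and 62.5, 54.9 and 52.5 in T14-RA. With RA the levels were 68.4, 69.8 and 68.6 at T7 and 99.4, 113 and 59.8 at T14. The groups without RA overlapped with T0, and those with RA did not. The day 14 term was 0.57 (SE 0.230, edgeR adjusted p = 0.0454), and it missed 0.05 in 10 of 15 fits with 1 library left out, those without T0 replicates 1 or 2, T7-RA replicates 1 or 3, T14-RA replicate 1, any T7+RA library or T14+RA replicates 1 or 2 (adjusted p 0.0555 to 0.157). The Psme2 to Psme1 count ratio was 0.238 to 0.517 at T0 and 0.505 to 0.909 in the later groups. Psme3 was at 57.9, 80.7 and 77.6 CPM at T0 and 63.7, 70.8 and 61.0 in T14-RA, which overlap, and its day 14 change was -0.10 (SE 0.190, adjusted p = 0.726). In T7-RA Psme3 was at 70.4, 55.1 and 71.2 CPM, in T7+RA at 61.3, 65.8 and 72.0 and in T14+RA at 56.9, 81.7 and 76.1, so no group stood apart.

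**Figure D4:**
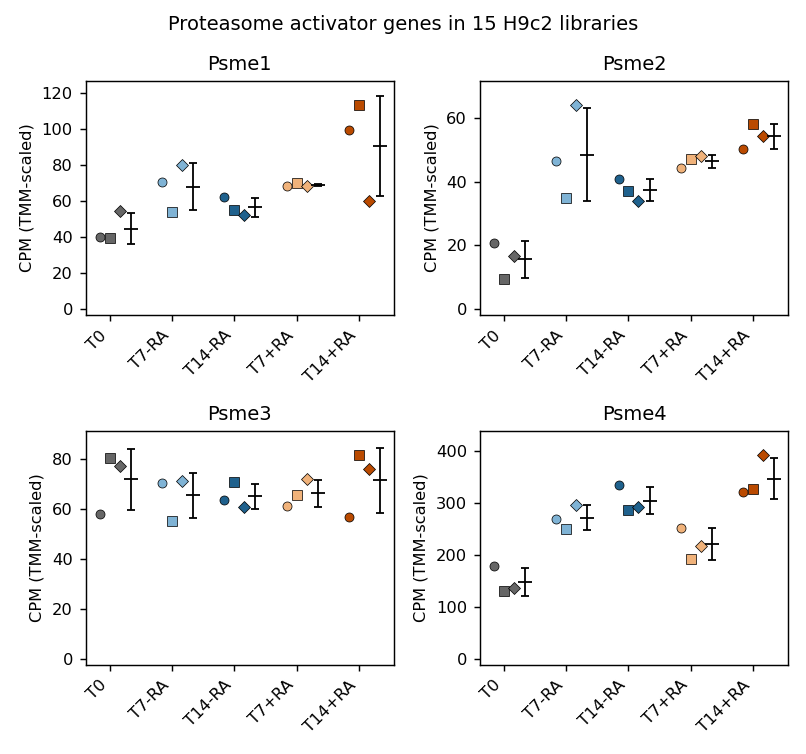
CPM scaled by TMM of the PA28 genes Psme1, Psme2 and Psme3 and the PA200 gene Psme4, by group. The 3 points of a group are its libraries, and the bars are the mean and SD. Psme2 and Psme4 lie above T0 in every later library, and the Psme3 groups overlap.

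Promoter sequences were set beside these results for activator and catalytic genes that differed in their values. The 100 bases before the RefSeq start site (build GRCr8) are printed 5′ to 3′ on the gene's own strand, and capitals mark a motif found in them. The motifs searched on both strands were the interferon response repeat (GAAA, any 2 bases and GAAA again), which interferon regulatory factors bind, TGACNNNGC, the core of the antioxidant response element that NFE2L1 and NFE2L2 bind with small MAF proteins, and CCAAT, the box that NF-Y binds.
Psme2, chr15:33052752-33052851, minus strand: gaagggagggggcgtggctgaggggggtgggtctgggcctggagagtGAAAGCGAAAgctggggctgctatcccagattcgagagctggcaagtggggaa
Psme1, chr15:33038871-33038970, plus strand: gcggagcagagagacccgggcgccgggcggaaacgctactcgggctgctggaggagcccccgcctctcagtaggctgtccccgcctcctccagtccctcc
Psmb10, chr19:50743293-50743392, minus strand: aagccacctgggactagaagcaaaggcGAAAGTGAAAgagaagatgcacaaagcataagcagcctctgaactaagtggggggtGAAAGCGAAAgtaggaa
Psmb9, chr20:4668900-4668999, plus strand: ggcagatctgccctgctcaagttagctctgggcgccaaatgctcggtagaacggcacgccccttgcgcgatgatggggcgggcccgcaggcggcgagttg
Psme4, chr14:108706543-108706642, plus strand: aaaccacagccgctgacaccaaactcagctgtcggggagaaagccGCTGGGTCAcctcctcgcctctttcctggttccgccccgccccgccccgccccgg
Psmb5, chr15:32047380-32047479, minus strand: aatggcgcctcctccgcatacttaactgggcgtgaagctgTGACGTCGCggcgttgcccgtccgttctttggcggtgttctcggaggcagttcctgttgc
Psme2, whose level rose, and Psmb10, whose groups overlapped, both hold the interferon response repeat, 1 and 2 times, and the Psme1 and Psmb9 stretches hold none of the 3 motifs. The promoters of Psme4 and Psmb5 hold TGACNNNGC. Of the 47 genes, 43 had a RefSeq promoter of 300 bases (250 before the start and 50 after it), and 41 of these were subunits or factors. The interferon response repeat stood in 6 of the 41 (14.6%) and in 3.92% of all 33469 promoters of that length, TGACNNNGC in 8 (19.5%) and 12.1%, and CCAAT in 20 (48.8%) and 37.5%. The 6 were Psma4, Psmb3, Psmb10, Psmd7, Psme2 and Psmg4. Psme1 and Psme2 are neighbours on chromosome 15 on opposite strands with 13780 bases between their starts, and the starts of Psmb9 and the peptide transporter gene Tap1 lie 457 bases apart on opposite strands of chromosome 20. A motif match describes these letters and is no binding site.

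Psmb6 was more abundant per length than its interferon-inducible counterpart Psmb9, and Psmb7 than Psmb10, by the mean of every group. The summed counts of Psmb9 and Psmb10, most of them Psmb10, gave shares of the catalytic counts that overlapped between T0 and T14-RA, whereas Psmb9 alone had 1 count over the T0 libraries and 13 over those of T14-RA. Per kilobase of the gene length given in the table, the T14-RA levels were 119 ± 3.82 CPM (SD, n = 3) for Psmb5, 110 ± 8.80 for Psmb7, 70.4 ± 11.997 for Psmb6, 37.0 ± 8.49 for Psmb10 and 7.01 ± 1.08 for Psmb9. Psmb5 and Psmb7 were within their spread of each other, and each lower neighbour differed by more than the sum of the SDs. Psmb9 and Psmb10 together gave 11.2% ± 2.18 (SD, n = 3) of the counts on the 5 catalytic genes at T0, 10.4% ± 1.43 in T7-RA, 12.6% ± 1.62 in T14-RA, 12.9% ± 4.18 for T7+RA and 14.9% ± 5.83 for T14+RA. The log2 ratio of these 2 genes to Psmb5, Psmb6 and Psmb7 was -3.00 ± 0.33 at T0 and -2.81 ± 0.22 in T14-RA, and the libraries overlapped. In T7+RA it was -2.80 ± 0.51 beside -3.11 ± 0.23 without RA, and the T14+RA value was -2.60 ± 0.73. T14+RA replicate 3, with 9 counts of Psmb10 against 46 and 40 in replicates 1 and 2, was the lowest. The difference between T14+RA and T14-RA was 0.21, it was 0.61 without that library, and it was -0.10 without T14+RA replicate 2. Between T14-RA and T0 the difference of the summed log2 ratio was 0.19, whereas forms in which Psmb9 weighs more gave larger values. These rest on the 0.5 counts added before taking logs, since Psmb9 had 0, 0 and 1 counts in the T0 libraries, and their size is not a measured fold.

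Psmb5, which cuts after hydrophobic residues, was at 70.4, 95.7 and 62.9 CPM at T0, 88.3, 91.4 and 109 in T7-RA and 103, 108 and 102 in T14-RA. With RA it was at 91.2, 76.5 and 66.8 at T7 and 104, 102 and 76.1 at T14. T14-RA lay above T0, and the groups with RA overlapped with it. The day 14 change was 0.49 (SE 0.175, edgeR adjusted p = 0.0227), and the adjusted p was 0.0999 without T0 replicate 1 and 0.0996 without T0 replicate 3.

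Psmb6, which cuts after acidic residues, was at 49.7, 80.7 and 44.0 CPM at T0, 64.4, 57.8 and 58.1 in T7-RA and 54.1, 56.7 and 40.6 in T14-RA. In T7+RA it was at 61.3, 60.4 and 60.0 and in T14+RA at 60.8, 59.7 and 54.4. All groups fell within the wide range at T0, apart from the lowest T14-RA library, and the day 14 change was -0.13 (SE 0.208, edgeR adjusted p = 0.668). Its sign turned to 0.17 without T0 replicate 2. A related copy, LOC100360846 at 2q23, held 74 counts that could belong to Psmb6. Psmb7, which cuts after basic residues, was at 123, 150.1 and 94.3 CPM at T0, 129, 117 and 135 in T7-RA and 138, 158 and 137 in T14-RA. With RA, Psmb7 was at 117, 113 and 135 at T7 and 134, 154 and 156 at T14. Each later group of Psmb7 overlapped with T0, whereas every T14-RA library lay above every day 7 library. The day 14 change was 0.25 (SE 0.148, edgeR adjusted p = 0.196).

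Psmb9, the immunoproteasome counterpart of Psmb6, was counted 0, 0 and 1 times in the T0 libraries, 3, 3 and 5 times in T7-RA and 6, 3 and 4 times in T14-RA. With RA the counts were 2, 3 and 0 at T7 and 12, 11 and 6 at T14. T14+RA lay above T14-RA in every library after scaling (10.9 to 17.3 against 5.31 to 7.21 CPM), and T7+RA overlapped with T0. Over the summed counts, T14+RA held 22.6 times the T0 level (exact 95% interval 3.75 to 924, counting error only) and T14-RA held 11.3 times (1.70 to 482). The ratio of T14+RA to T14-RA was 1.99 (exact 95% interval 1.004 to 4.18, counting error only). In the edgeR fit, which includes the spread between libraries, the RA change was not called at either day. It was 0.99 at day 14 (SE 0.547, edgeR adjusted p = 0.300) and -0.94 at day 7 (SE 0.785, adjusted p = 0.637). The fitted day 14 change against day 0 was 3.53 (SE 0.989, edgeR adjusted p = 0.00346), which depends on the prior count. It was 5.61 without T0 replicate 3, the library with the 1 count. Psmb10, the counterpart of Psmb7, was at 23.5, 48.8 and 25.2 CPM at T0, 32.2, 29.6 and 21.8 in T7-RA and 40.8, 42.5 and 27.1 in T14-RA. With RA, Psmb10 was at 27.1, 49.7 and 32.6 at T7 and 44.4, 62.9 and 16.3 at T14. Its groups overlapped throughout, and the day 14 change was 0.17 (SE 0.317, edgeR adjusted p = 0.726). It was -0.05 without T0 replicate 1 and 0.58 at the highest with another library left out.

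**Figure D5:**
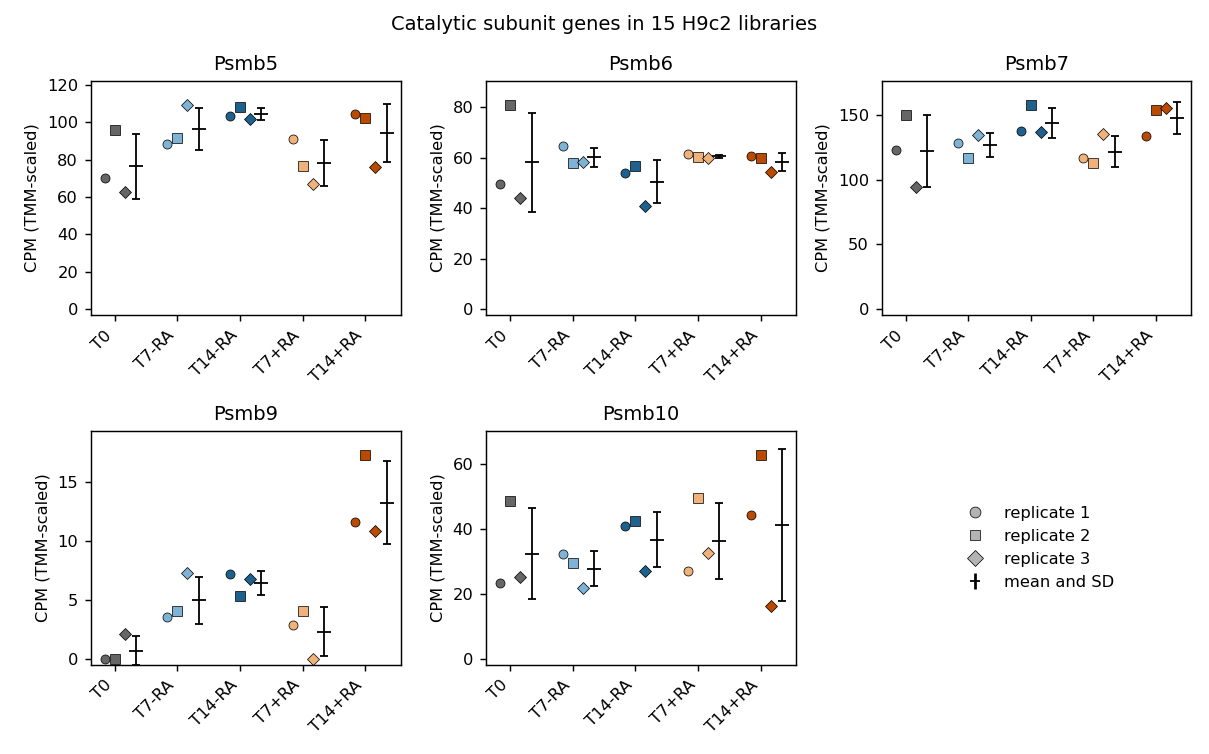
CPM scaled by TMM of the constitutive catalytic genes Psmb5, Psmb6 and Psmb7 and the immunoproteasome genes Psmb9 and Psmb10, by group. Points are libraries, and the bars are the mean and SD of 3. Vertical scales differ between panels. Psmb9 stays under 18 CPM and is highest in T14+RA, and the Psmb10 groups overlap.

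No member passed the threshold for RA. At the looser one of 0.05, the share of members higher with RA was below that of all genes over both days and near it at day 14. None was called for RA over both days, at day 7 or at day 14 by edgeR's quasi-likelihood test, where 6.39%, 3.17% and 4.81% of all genes were called at an adjusted p under 0.001. At an unadjusted p under 0.05 there were 5, 5 and 8 members (10.6%, 10.6% and 17.0%, beside 24.8%, 17.2% and 21.6% of all genes), and DESeq2, limma-voom and limma on quantile-normalized values called 0 at 0.001 for each. The 95% interval of the RA term lay within a 1.5-fold change in either direction for 39 of the 47 genes and within a 2-fold change for 44. Those not within 2-fold were Psmb9, Psmc3ip and Psmd10, which had 59, 103 and 66 counts in all. The single days were less precise. The interval lay within 1.5-fold for 33 genes at day 7 and 32 at day 14, and within 2-fold for 39 and 42. Among the catalytic genes the intervals of the RA term were -0.45 to 0.05 for Psmb5, -0.19 to 0.40 for Psmb6, -0.23 to 0.19 for Psmb7 and -0.17 to 0.73 for Psmb10.

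At an adjusted p under 0.05, Psma1 (log2 change 0.27, SE 0.0852, edgeR adjusted p = 0.0187) and the ATPase gene Psmc3 (0.25, SE 0.0863, adjusted p = 0.0382) were higher with RA over both days. They were 4.26% of the members, and 7.4% of all genes were higher. DESeq2 left Psma1 alone past 0.05 and limma on quantile-normalized values left 0 (adjusted p 0.159 and 0.309). Psma1 missed 0.05 without T14-RA replicate 2 or T14+RA replicate 1 (adjusted p 0.0704 to 0.0828), and Psmc3 in 9 of 15 fits with 1 library left out, which spared T7-RA replicate 2, T7+RA replicate 2, T14+RA replicate 3 and the T0 libraries (adjusted p 0.0565 to 0.0808). Psmc3 was at 281, 285 and 290 CPM in T14-RA and 339.5, 385 and 346 in T14+RA, with no overlap, and at 290, 312 and 269 in T7-RA and 339, 301 and 349.7 in T7+RA, which overlap. At day 7 alone, Psmg3, a chaperone of core assembly, was the 1 gene past 0.05 (2.13% of the members were lower, as were 3.28% of all genes). It was at 47.7, 36.3 and 42.1 CPM in T7-RA and 22.8, 22.8 and 27.4 in T7+RA, with no overlap. The change was -0.80 (SE 0.262, edgeR adjusted p = 0.0456). It missed 0.05 with DESeq2 (adjusted p = 0.163) and in 11 of 15 fits with 1 library left out, all but those without a T0 library or T7-RA replicate 2 (adjusted p 0.0518 to 0.223).

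At day 14, 3 genes were higher with RA at an adjusted p under 0.05 (6.38%, against 5.42% of all genes) and 0 were lower. Psme1 changed most (0.69, SE 0.200, edgeR adjusted p = 0.0123), followed by Psma3l (0.43, SE 0.136, adjusted p = 0.0274) and Psma1 (0.37, SE 0.116, adjusted p = 0.0238). With DESeq2 and with limma on quantile-normalized values none of the 3 passed 0.05 (adjusted p 0.0702 to 0.168), and with limma-voom all 3 did. Each was also lost without some libraries of day 14. Psma1 missed 0.05 without T14-RA replicates 1 or 2 or T14+RA replicate 1 (adjusted p 0.0915 to 0.168), Psma3l without T14-RA replicates 1 or 3 or T14+RA replicates 2 or 3 (0.0537 to 0.183), and Psme1 without T14-RA replicate 3 or T14+RA replicates 1 or 2 (0.0630 to 0.114). The Psme1 values of T14+RA, given above, lay above T14-RA in 2 of 3 libraries, and without T14+RA replicate 3 the change was 0.88 and was called at 0.001 (adjusted p = 9.08e-04). The RA change at day 14 was positive for 37 of the 47 genes, with a median of 0.15, and 49.6% of all genes were positive, with a median of -0.00. At day 7 it was positive for 20, with a median of -0.02, equal to that of all genes. In 9 members (19.1%) the 3 T14+RA libraries lay above the 3 T14-RA libraries, and 13.4% of all genes did so. They were Psma1, Psma3l, Psmb9, Psmc3, Psmc4, Psmc6, Psmd2, Psmd12 and Psme2. For 1 member, Psmd10, they lay below, beside 13.9% of all genes.

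The difference between the RA change at day 14 and at day 7 had a median of 0.20 over the members and 0.01 over all genes, and was positive for 35 of 47. No member passed an adjusted p of 0.05 for this difference in edgeR (0.743% of all genes did), and 7 (14.9%) had an unadjusted p under 0.05, all positive, where 8.35% of all genes had one in either direction. DESeq2, limma-voom and limma on quantile-normalized values also gave 0 at 0.05. Among these 7 were Psme4 (0.47, SE 0.173, edgeR adjusted p = 0.329) and Psme1 (0.67, SE 0.284, adjusted p = 0.462). The summed myotube markers were lower with RA at both days, at 1468 to 1772 CPM in T7+RA against 3095 to 3651 without RA, and at 4537 to 5245 in T14+RA against 11596 to 12208 without RA. Of the 7 marker genes, 3 were called lower and 0 higher at each day, beside 3.17% and 4.81% of all genes called in either direction. The median marker changes were -0.60 at day 7 and -0.28 at day 14. The part of the markers in the RA changes of the members was not tested.

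Genes that act with the proteasome were read from lists outside the symbol rule. Their counts stand beside the shares of all genes given above, which were 8.47% called higher and 8.85% lower at day 14 and 6.39% called in either direction for RA. Of 11 other subunits, deubiquitinases and adaptors in the table, 3 were called higher at day 14 and 0 lower. They were Usp14, the deubiquitinase that sits on the 19S particle (log2 change 1.42, SE 0.173), and Zfand5 (1.29, SE 0.157) and Zfand2a (0.79, SE 0.155), zinc finger proteins that bind it, with edgeR adjusted p of 9.17e-10, 8.60e-10 and 3.51e-05. None of the 11 was called for RA. Of 6 genes that control proteasome genes or act in that pathway, Nfe2l1, whose product raises proteasome genes when the proteasome is impaired, rose by 1.39 (SE 0.114, edgeR adjusted p = 1.26e-15) at day 14, from 273 ± 22.0 CPM (SD, n = 3) at T0 to 731 ± 21.9 in T14-RA. Nfe2l2 rose by 0.61 (SE 0.139, adjusted p = 3.52e-04). Hspa5, the chaperone of the endoplasmic reticulum, was the gene of this list called for RA, at 0.42 (SE 0.0722, adjusted p = 9.05e-06).

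Of 16 ubiquitin and shuttle genes, with Rps27a listed under 2 gene identifiers, 0 rose and 1 fell at day 14 (8.85% of all genes fell), the shuttle gene Ubqln2, by 1.20 (SE 0.148, edgeR adjusted p = 1.32e-09). Of 10 muscle ubiquitin ligases and their adaptors, 6 rose and 0 fell, beside 8.47% and 8.85% of all genes. Trim63 (MuRF1) rose by 3.1 (SE 0.364), Klhl41 by 1.89 (SE 0.257), Trim54 by 6.00 (SE 0.431) and Trim55 by 1.21 (SE 0.194), with edgeR adjusted p from 7.41e-18 to 7.84e-05. Trim54 and Trim63 had 3 and 11 counts over the T0 libraries, so the size of their rise is uncertain. The Trim54 mean was 121 CPM in T14-RA and 17.1 in T14+RA. With RA over both days, 2 of the 10 rose and 1 fell. Trim55 was higher by 1.86 (SE 0.105, edgeR adjusted p = 3.75e-22), Fbxo32 (atrogin-1) by 1.08 (SE 0.201, adjusted p = 3.69e-05), and Trim54 lower, at -2.89 (SE 0.235, adjusted p = 1.96e-15). At day 14 alone 3 were higher and 2 lower, beside 4.81% of all genes called in either direction. Trim55, Fbxo32 and Asb2 (0.91, SE 0.187, edgeR adjusted p = 2.21e-04) were those higher, and Trim54 and Klhl41 those lower. Klhl41 changed by -1.37 (SE 0.109, edgeR adjusted p = 2.00e-16), and its RA change at day 14 minus that at day 7 was -1.13 (SE 0.166, adjusted p = 5.70e-06).

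Of 14 MHC class I processing genes in the table, 1 rose and 1 fell at day 14, beside 8.47% and 8.85% of all genes, and 3 rose with RA, where 6.39% of all genes were called in either direction. B2m, the light chain of MHC class I, rose by 1.92 (SE 0.123, edgeR adjusted p = 6.54e-20) at day 14 and by 0.62 (SE 0.0797, adjusted p = 9.64e-09) with RA. Calr, a chaperone of that pathway, fell by 0.46 at day 14 (edgeR adjusted p = 7.05e-05). Canx (0.38) and the peptide-trimming Erap1 (0.49) rose with RA, with adjusted p of 5.99e-05 and 8.10e-04. Among 13 interferon response genes, Irf7 (1.90) and Gbp2 (1.58) rose at day 14 (edgeR adjusted p = 7.24e-07 and 2.42e-04), and none was called for RA.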

How the data were processed

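RNA-seq of 15 H9c2 libraries was used (TruSeq stranded mRNA, MiSeq). The authors trimmed the reads on Galaxy and deposited raw counts per gene. The submitters' processing notes name HISAT2, featureCounts and the build Rnor_6.0. Versions, annotation release and strand setting are not given in the sources used here, so overlapping and antisense genes may share reads. The authors kept genes above a minimum summed count, and the smallest sum is 21. Libraries hold 508397 to 1030820 counts. Lengths are the deposited gene sizes in bases, and gene descriptions were not used.

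Counts were fitted in edgeR 4.0.16 (R 4.3.3) with TMM scaling and robust quasi-likelihood tests, either with T7, T14 and RA terms or with 5 group means. Common dispersion was 0.00962. P-values were adjusted by Benjamini-Hochberg over 11574 genes per term. SEs were derived from the F statistic, and CPM used TMM-scaled library sizes. Psmb9 ratios have exact conditional binomial intervals, which cover counting error only. Alternatives used DESeq2 1.42.0, limma 3.58.1, other scalings, a minimum of 10 counts, a replicate block and each library left out. Scripts were tested on simulated data.

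Per-library values were given for catalytic genes, Psme1 to Psme4 and members called in any term, and up to 4 genes per partner list by lowest adjusted p. Psmc3, Psmg3, Psmc3ip, Psmd10, Psmd2, Psmc2, Fbxo32 and Asb2 were added after their values were seen. A result on the interferon response list is not reported here. The members and lists were chosen with earlier results of these data known. RefSeq promoters (GRCr8) were matched by symbol or synonym, and 4 members had none. Whether replicate numbers pair the libraries was not settled, and the main fits did not use them. Deviations of same-numbered libraries correlated at a mean of 0.018 (-0.009 for different numbers), and 0 of 30 pairs exceeded 0.1. At a median of 22 counts per gene and library, counting noise keeps such correlations low, so these values cannot exclude pairing.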

Additional observations from a re-analysis of the deposited data

How the results depend on the processing

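The number of proteasome genes called higher at day 7 (5) was 3 with limma-voom, 1 with limma on quantile-normalized log2(count + 1) and 8 at an adjusted p under 0.05. It ranged from 3 to 5 over fits without 1 library, with 3 without T0 replicate 3 and 3 without T7-RA replicate 3. At day 14 the count (7) was 4 with limma-voom, 3 with quantile-normalized values and 16 at 0.05, and it ranged from 4 to 7, with 4 without T0 replicate 3. For RA the counts of 0 became 2 over both days, 1 at day 7 and 3 at day 14 at 0.05, where DESeq2 gave 1, 0 and 0, limma-voom 2, 1 and 3, limma on quantile-normalized values 0, 1 and 0, and library size without TMM 1, 1 and 3. Without 1 library they ranged from 0 to 0 over both days, at day 7 and for the difference between days, and from 0 to 1 at day 14, with 1 without T14+RA replicate 3. With the replicate block the counts at 0.001 were 5 and 7 for time and 0 for RA, and the count at 0.05 for RA at day 14 was 5 instead of 3. The block changed no call at 0.001 among the named changes. Of 15 libraries, 8 resembled a library of their own number most.

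Psma4 and Psmb1 at day 14 and Psmc6 at day 7 were not called by DESeq2, limma-voom or limma on quantile-normalized values (adjusted p 0.00118 to 0.00832), nor was Psme2 by either limma fit (0.00109 to 0.00216), nor Psma1 and Psme4 at day 7 and Psmc6 at day 14 on quantile-normalized values (0.00261 to 0.00531). Library size without TMM moved the median of all genes to 0.13 at day 7 and 0.15 at day 14, with the members at 0.26 and 0.41, and turned the Psme3 day 14 change to 0.0052. Over fits without 1 library, some uncalled log2 changes spanned 0. Others did not, such as those of Psmb5 (0.40 to 0.68) and Psmb7 (0.12 to 0.41) at day 14. Psmb10 ranged from -0.051 to 0.58 at day 14 and from -0.35 to 0.28 at day 7, Psmb6 from -0.25 to 0.17 and from -0.12 to 0.31, Psmb7 from -0.11 to 0.18 at day 7, and Psme3 from -0.25 to 0.0091 at day 14.

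The log2 immunoproteasome to constitutive ratio differed between T14-RA and T0 by 2.27 without Psmb10 and Psmb7 and by 1.32 as a mean of pairwise ratios. Without Psmb10 and Psmb7 it differed by 0.96 between T14+RA and T14-RA and by -0.98 between T7+RA and T7-RA, where the mean of pairwise ratios gave -0.37. These follow the few Psmb9 counts (0, 0 and 1 at T0) and the 0.5 counts added before taking logs. Over fits without 1 library the ratio differences ranged from 0.0076 to 0.32 (T14-RA minus T0), -0.10 to 0.61 (T14+RA minus T14-RA), 0.024 to 0.50 (T7+RA minus T7-RA) and 0.11 to 0.46 (RA over both days). Where no value shows it, the cause of a change was not tested.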
